A study of Mus musculus with 11 samples.

Results

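The genes described here carry the names of mitochondrial ribosomal proteins. They were taken by symbol as the protein-coding genes on chromosomes 1 to 19 whose name begins with Mrpl or Mrps, and this gave 77 genes (47 named Mrpl, for the large subunit, and 30 named Mrps, for the small subunit) of 21418 protein-coding genes there. No measured value entered this rule, though it was set with earlier results of these data known. Mrps36 and its copy Mrps36-ps1 are members by name, although Mrps36 is now known as a subunit of the 2-oxoglutarate dehydrogenase complex. Mrps30 and Mrps18a, small subunit genes by name, are known to encode proteins of the large subunit, and subunits below are by name only. They lie on 17 chromosomes and are called the members below. For each, reads were counted within 600 bp of the transcription start site (TSS), and levels are given in p.p.m. of the mapped reads.

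The series maps newly made and total histone variants in mouse cells of the strain 129 X C57bl/6 by chromatin immunoprecipitation and sequencing (ChIP-Seq). HA-Macro, an HA-tagged MacroH2A2, and HA-H3.3 were each carried by embryonic stem (ES) cells of the KH2 line, with the M2rtTA transactivator at ROSA26 and the tetracycline-controlled histone at Col1A1, so that doxycycline (Dox) at 2 µg/ml switches the tagged protein on. Anti-HA libraries were made from uninduced HA-Macro ES cells, from the same cells given Dox for 3, 6 or 12 hours, from HA-Macro embryonic fibroblasts (MEFs) given Dox for 3, 6 or 12 hours, and from HA-H3.3 ES cells given Dox for 3 or 6 hours. Anti-MacroH2A2 libraries are labelled as parental KH2 ES cells and wild type MEFs, untreated, and each combines 2 replicates. The HA-Macro MEFs were grown from chimeric E12.5 embryos, selected with puromycin and used at passage 2, and feeder MEFs were depleted from the ES cells by pre-plating. The labels do not say how many clones or embryos stand behind a library, and the cell types were not checked against marker expression, since the files analysed here hold ChIP reads only.

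Each of the 11 conditions has 1 library, so no difference below can be set against a spread between replicates. The intervals given are exact 95% intervals that cover counting error only. Depth ran from 6485439 to 20540691 reads, which left the median member with 4 to 24 reads in a library. Single members are therefore known with wide intervals, and the pooled reads of all members carry most of the precision. Pooled values of all genes leave out the discarded tiles, which are the top 1% of 100 kb stretches by reads in the library without Dox, and 2 members (Mrpl34 and Mrpl54) lie in such tiles. Levels in p.p.m. are shares of the reads of a library, so a lower level can also go with more tagged histone elsewhere. The paper explains falling relative enrichment at promoters in this way, and infers from it rapid MacroH2A2 replacement there. As further evidence it cites earlier yeast data and a correlation with mRNA abundance. In chromatin from many cells, fewer cells with the tagged histone at a promoter and less of it in each cell cannot be told apart.

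Mitochondria keep their own ribosome, which translates the few respiratory chain subunits encoded in mitochondrial DNA. Its proteins come from nuclear genes, are made in the cytosol and are imported. Some have counterparts in bacterial ribosomes and others are found in mitochondrial ribosomes only. The genes are expressed in most cell types, and many have promoters rich in CpG with sites for NRF1, ETS factors such as GABP, or YY1. MacroH2A2 is an H2A variant with a large carboxy-terminal domain, and H3.3 is the H3 variant deposited outside replication.

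The reference sequence just upstream of the TSS is shown for members at both ends of the order by HA-Macro change between 3 and 12 hours in ES cells, so that the promoters behind the values can be seen. Bases annotated as exon in any gene were left out, and matches to CCGGAAG, an ETS motif, are in capitals. Mrps9 (chr1:42907928-42908077, plus strand), Mrps11 (chr7:85927953-85928004, plus strand) and Mrpl43 (chr19:45080933-45081047, minus strand) had the lowest 12 h over 3 h ratios with 1 read added, among members with at least 20 reads over both libraries. Mrpl23 (chr7:149718554-149718703, plus strand) was among the 3 highest of these. Mrpl45, with fewer reads, was lower than all of them, at -2.81 on the log2 scale with 1 read added, and is mentioned because of that value. Coordinates are of the mm9 (NCBIM37) genome.
Mrps9: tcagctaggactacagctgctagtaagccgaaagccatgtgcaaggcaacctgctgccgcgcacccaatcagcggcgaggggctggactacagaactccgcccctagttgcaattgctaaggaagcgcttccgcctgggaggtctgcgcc
Mrps11: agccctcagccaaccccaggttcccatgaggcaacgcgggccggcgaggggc
Mrpl43: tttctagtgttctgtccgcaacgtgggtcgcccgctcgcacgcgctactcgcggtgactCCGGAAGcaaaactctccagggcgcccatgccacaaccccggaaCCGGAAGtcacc
Mrpl23: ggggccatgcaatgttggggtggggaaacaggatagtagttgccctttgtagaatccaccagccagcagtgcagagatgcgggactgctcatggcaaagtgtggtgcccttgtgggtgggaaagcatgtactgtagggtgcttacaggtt
The Mrpl43 stretch holds 2 such matches on the strand shown. It is 115 bp long and ends at annotated exon. The TSS of Peo1, which encodes the mitochondrial DNA helicase, lies 369 bp from that of Mrpl43 on the other strand. The Mrpl23 stretch is poor in CpG, with an observed over expected ratio of 0.108 in the window from 250 bp before to 50 bp after the annotated TSS, against 0.95 at Mrpl43, 0.726 at Mrps11 and 0.537 at Mrps9. The start of the longest coding transcript of Mrpl23 lies 213 bp from the TSS used. Mrps24 and Mrps26, the other two of the 3 highest, have annotated exon up to the TSS and are not shown.

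Several promoter features were more frequent among the members than among all genes, though most of them were found at a minority of members, and no test of this was made. The CpG-rich type of promoter, here an observed over expected ratio of at least 0.6 and a GC content of at least 55% in that window, was found at 43 of 77 members (55.8%) against 38.2% of all protein-coding genes on these chromosomes. A protein-coding TSS on the opposite strand within 1 kb was present at 28 of 77 (36.4%) against 11.1%. The ETS motif CCGGAAG on either strand was found at 27 members (35.1%) and at 10.9% of all promoters of the same length. The NRF1 motif GCGCATGCG occurred at 5 members (6.49% against 2.13%) and the YY1 motif AAGATGGCG at 7 (9.09% against 1.84%). The letters ACTACAATT of the ZNF143 and HCFC1 element were in none of these windows, against 0.490% of all. Of respiratory chain genes 50.6% were CpG-rich, 31.8% had an opposite-strand TSS, 18.8% CCGGAAG, 9.41% GCGCATGCG and 7.06% AAGATGGCG. For cytosolic ribosomal protein genes these shares were 48%, 16%, 30.7%, 1.33% and 5.33%, so such features were not particular to the members. Each motif was counted on its own, whether or not it overlapped another, and a match is a description of letters only. A pair of members has overlapping windows: Mrpl46 and Mrps11 start 412 bp apart on opposite strands, and at the TSSs used the genes themselves overlap. Their shared reads were counted once in the pooled values of all 77 members. Pooled values of subsets and of other gene lists add up the windows of their genes, so that reads in overlapping windows count for each gene.

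HA-Macro at the member promoters was highest in ES cells at the earliest time and lower at each later one. The pooled level was 105 p.p.m. (101 to 110) after 3 hours, 65.8 (62.1 to 69.7) after 6 hours and 49.3 (46.2 to 52.6) after 12 hours, from 1836, 1166 and 928 reads. Without Dox the anti-HA library gave 47.9 p.p.m. (44.1 to 51.9). The 3 hour library thus stood apart from the other 3 and the 12 hour library overlapped the library without Dox. In MEFs the pooled levels were 34.6, 30.1 and 26.5 p.p.m. after 3, 6 and 12 hours, below every ES library including the one without Dox. The intervals in MEFs were 31.3 to 38.2, 26.9 to 33.5 and 24.3 to 28.8 p.p.m., so neighbouring time points overlapped there.

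Total MacroH2A2 gave 88.6 p.p.m. (82.4 to 95.1) in ES cells and 40.1 (36.9 to 43.4) in MEFs. HA-H3.3 in ES cells gave 130 p.p.m. (121 to 139) after 3 hours and 202 (194 to 211) after 6 hours. Read intervals are 400 bp long for HA-H3.3 and for anti-MacroH2A2 but 150 bp for HA-Macro, so levels were compared only within HA-Macro, within HA-H3.3 and within anti-MacroH2A2.

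**Figure D1:**
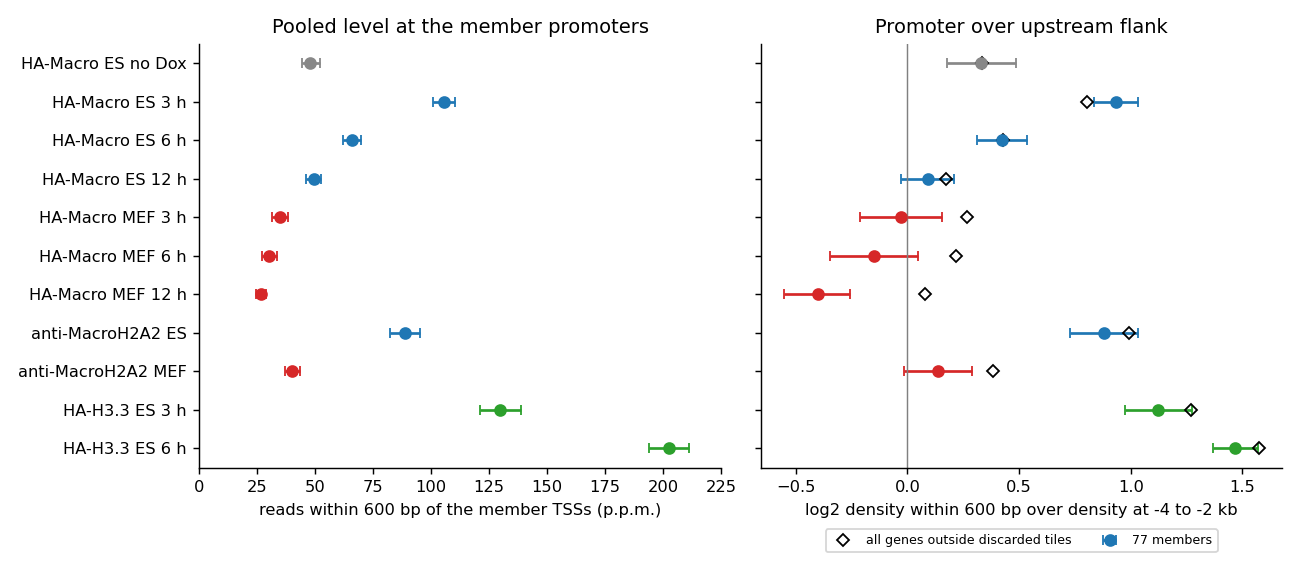
Left, pooled reads within 600 bp of the 77 member TSSs in p.p.m. for each of the 11 libraries, with exact 95% Poisson intervals. Right, log2 density there over the density from 4 to 2 kb upstream, with exact 95% intervals, and the same for all genes outside the discarded tiles (open diamonds). HA-Macro in ES cells steps down from 3 to 12 hours, and on the right the HA-Macro MEF libraries lie below 0 and the anti-MacroH2A2 MEF library at 0.14.

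Set against the genome, the members stood in the upper part of the range in the earliest ES library and in the lower part in MEFs. The median member held 1.26 p.p.m. of HA-Macro after 3 hours in ES cells, where the median of all genes was 0.862 and 68.3% of genes lay below the median member. Genes with a CpG-rich promoter had a median of 1.38 p.p.m. there and cytosolic ribosomal protein genes 1.72, both above the members. After 12 hours in ES cells the medians of the members and of all genes were both 0.584 p.p.m. Genes with a CpG-rich promoter had a median of 0.744 p.p.m. and cytosolic ribosomal protein genes 0.584. In MEFs the median member held 0.444, 0.367 and 0.292 p.p.m. after 3, 6 and 12 hours, against 0.532, 0.459 and 0.438 for all genes, and after 12 hours 23.6% of genes lay below it. With anti-MacroH2A2 the medians were 1.17 against 1.05 p.p.m. in ES cells and 0.470 against 0.604 in MEFs, with 1.52 and 0.671 for genes with a CpG-rich promoter. The median member was thus above the median gene in ES cells and below it in MEFs with both antibodies, apart from the ES libraries at 12 hours and without Dox, where they were level (0.559 p.p.m. each without Dox).

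The density at the promoter relative to the members' own flank from 4 to 2 kb upstream does not depend on the scaling of libraries. Its log2 was 0.93 (0.84 to 1.03) for HA-Macro after 3 hours in ES cells, 0.43 after 6 hours and 0.09 (-0.03 to 0.21) after 12 hours. The library without Dox gave 0.33 (0.18 to 0.49). All genes outside the discarded tiles gave 0.80, 0.43 and 0.17 after 3, 6 and 12 hours in ES cells and 0.33 without Dox. The fall over time in ES cells was thus not particular to the members. In MEFs the members gave -0.03 (-0.21 to 0.15) after 3 hours, -0.15 after 6 hours and -0.40 (-0.55 to -0.25) after 12 hours. All genes outside the discarded tiles gave 0.27, 0.22 and 0.08 there. The member promoters of MEFs thus held fewer HA-Macro reads than their flanks at 12 hours. Anti-MacroH2A2 gave 0.88 (0.73 to 1.03) in ES cells and 0.14 (-0.01 to 0.29) in MEFs, with 0.99 and 0.38 for all genes.

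The profile around the TSS showed where the reads lay. In ES cells after 3 hours the highest 100 bp bin was centred 150 bp downstream, with 198 p.p.b. per member (1000 p.p.b. are 1 p.p.m.), against a mean of 60.1 p.p.b. in bins 4 to 2 kb upstream. The bin just upstream of the TSS held 64.9 p.p.b. The same downstream bin held 108 p.p.b. after 6 hours and 86.2 after 12 hours, and 68.4 without Dox. In MEFs it held 50.7, 50.1 and 38.6 p.p.b., while the bin just upstream of the TSS held 32.3, 17.9 and 15.2. The bin centred 150 bp downstream was thus above the bin just upstream of the TSS in all 6 Dox-treated HA-Macro libraries. In MEFs the bins 4 to 2 kb upstream had means of 38.3, 36.2 and 38.0 p.p.b. after 3, 6 and 12 hours. The highest MEF bins after 3 and 12 hours were centred 3950 and 1750 bp upstream. After 12 hours in MEFs the downstream bin was near the flank mean, and the bin just upstream of the TSS was below it. HA-H3.3 after 6 hours covered both sides, with 240 p.p.b. 350 bp upstream and 254 p.p.b. 250 bp downstream. After 3 hours its highest bin was also centred 150 bp downstream, at 204 p.p.b. Reads within 600 bp downstream over those upstream gave 1.05 to 1.62 in the Dox-treated HA-Macro libraries, against 1.34 to 1.67 for all genes. For HA-H3.3 the members gave 1.13 and 1.03 after 3 and 6 hours, against 1.30 and 1.16 for all genes. Interval lengths of 150 and 400 bp limit any comparison of shapes.

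**Figure D2:**
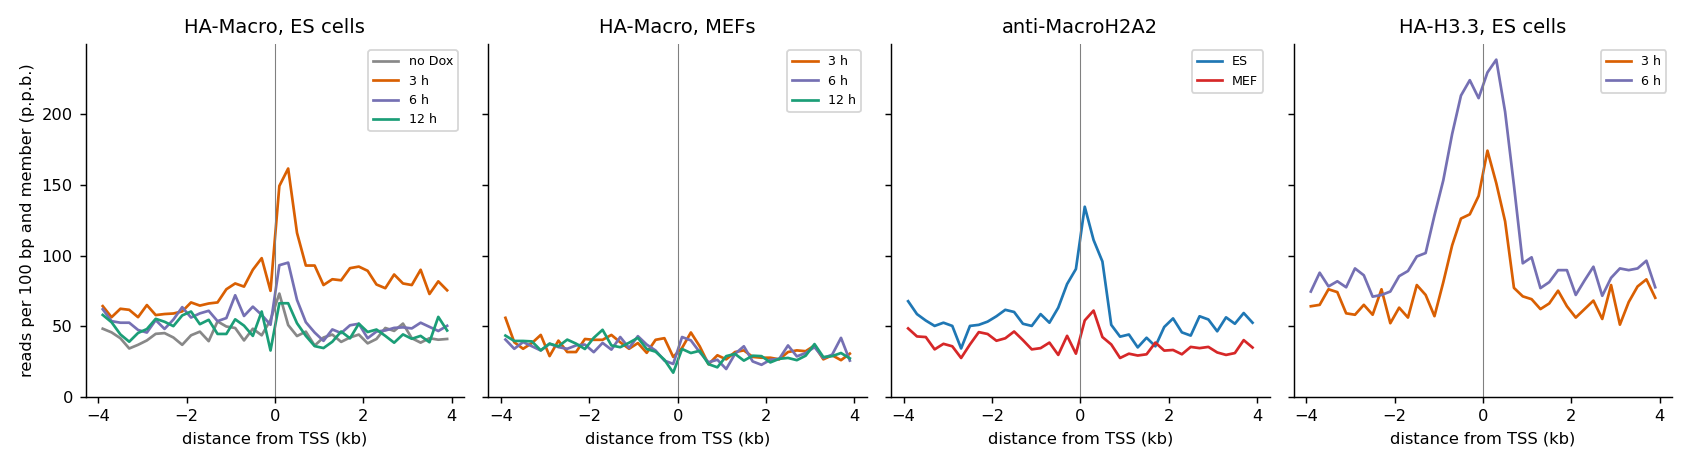
Mean reads per 100 bp and member (p.p.b.) by distance from the TSS (kb), averaged over pairs of neighbouring bins, for each library. HA-Macro after 3 hours in ES cells peaks just downstream of the TSS and stays raised over the 4 kb downstream, the HA-Macro lines of MEFs have no such peak, anti-MacroH2A2 peaks higher in ES cells than in MEFs, and HA-H3.3 forms a broad peak on both sides.

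The comparison of 12 with 3 hours asks how the distribution of newly made protein shifts as labelling goes on. At the pooled member promoters of ES cells the level after 12 hours was 2.14-fold lower than after 3 hours (1.98 to 2.32), a log2 ratio of -1.10 (-1.21 to -0.98). It was below 0 at 76 of 77 members and at 15097 of 21418 genes. Among members with at least 10 reads over both libraries, 43 of 77 were at least 2-fold lower and 0 were 2-fold higher, where 28.1% and 4.73% of all such genes were lower and higher. The median member stood at -1.06, the median gene at -0.50 and the median gene with a CpG-rich promoter at -0.91. Of the genes with a CpG-rich promoter, a group that holds 43 of the members, 43.7% were at least 2-fold lower. This group was added as a comparator after the members' values were seen.

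Most of the step fell between 3 and 6 hours. The log2 ratio was -0.68 (-0.79 to -0.57) from 3 to 6 hours, with 20 of 77 members at least 2-fold lower against 12.1% of all genes. From 6 to 12 hours it was -0.42 (-0.54 to -0.29), with 10 of 76 lower against 10.3%. The order 3 h above 6 h above 12 h held at 46 of 77 members (59.7%) and at 41.4% of all genes. The step after 6 hours was therefore smaller, and its count of 2-fold calls was near the background.

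The library without Dox shows the anti-HA signal before induction, which at promoters the paper attributes to likely leaky expression or, alternatively, to open chromatin. After 3 hours the members were 2.20-fold above this library (2.01 to 2.42). Of them, 38 of 77 were at least 2-fold higher, against 30.3% of all genes and 44.7% of those with a CpG-rich promoter. After 12 hours the log2 ratio was 0.04 (-0.11 to 0.19), with 1 of 69 at least 2-fold higher against 9.02% and 9 of 69 at least 2-fold lower against 8.21%. Scaled to the upstream flanks of all genes in place of the library totals, the 12 hour ratio turned to -0.26. The pooled member promoters thus held no detectably larger share of reads after 12 hours than without Dox. On library totals the median gene (0.04) and the median gene with a CpG-rich promoter (-0.002) were about as level. Shares of reads do not show whether the amount of tagged histone differed, and a ratio of 12 to 3 hours cannot be read as a rate. From the ratio of 3 to 12 hours the paper infers turnover relative to the genomic average, which was not tested here.

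The lower level was not limited to the promoter window. From 2 to 4 kb downstream the log2 ratio of 12 over 3 hours was -0.87 (-0.97 to -0.77), whereas 4 to 2 kb upstream it was -0.26 (-0.36 to -0.16). All genes outside the discarded tiles gave -0.29 and 0.04 there. Within the window the upstream side gave -0.95 (-1.13 to -0.77) and the downstream side -1.21 (-1.36 to -1.06). In introns of members over 1 kb from any protein-coding TSS the level was 685 p.p.b. per kb after 3 hours, 427 after 6 hours, 388 after 12 hours and 398 without Dox. The same figures for all genes were 452, 399.7, 391 and 387. The 3 hour library was thus the highest of these over introns of the members, and also over those of all genes. Exons of members stood at 852 p.p.b. per kb after 3 hours. Their log2 ratio over introns was 0.31 (0.25 to 0.38), less than the 0.66 of all genes in that library. The introns came to 831338 bases for the members and 850705154 for all genes. Gene length and distance from the TSS were not matched, so members and all genes are not compared like for like here.

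The single members with the lowest ratios included Mrpl and Mrps genes. The lowest log2 ratios with 1 read added, among 69 members with at least 20 reads, were -2.25 at Mrps9, -2.06 at Mrps11, -2.01 at Mrpl43, -1.89 at Mrps21, -1.88 at Mrpl13 and -1.85 at Mrpl14. Of the 6, 5 encode proteins with bacterial counterparts, as do 46 of all 77 members. The exception is Mrpl43, a protein of the mitochondrial large subunit only. A protein-coding gene starts on the other strand within 1 kb at 5 of the 6, against 28 of all 77 members. Mrps9 is the exception, and for Mrps11 this gene is Mrpl46. With 6 members picked as extremes, these counts are a description only.

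At Mrps9, which encodes the counterpart of bacterial S9, HA-Macro stood at 1.21, 0.734 and 0.212 p.p.m. after 3, 6 and 12 hours in ES cells, against 0.319 p.p.m. without Dox. In MEFs it stood at 0.177, 0.367 and 0.292 p.p.m., anti-MacroH2A2 gave 0.819 in ES cells and 0.201 in MEFs, and HA-H3.3 gave 0.463 and 1.68 after 3 and 6 hours. The 3 and 6 hour ES libraries were the highest of the HA-Macro libraries, and the others held at most 6 reads each. The log2 ratio without added reads was -2.51, with an interval of -4.51 to -0.94 from 4 and 21 reads. Its TSS is 101641 bp from that of the nearest other protein-coding gene, Gpr45.

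At Mrpl43 HA-Macro stood at 2.93, 1.86 and 0.690 p.p.m. in ES cells and 0.878 without Dox, the largest difference in p.p.m. among the 6. In MEFs it stood at 0.355, 0.275 and 0.828 p.p.m. after 3, 6 and 12 hours, anti-MacroH2A2 gave 1.87 in ES cells and 0.940 in MEFs, and HA-H3.3 gave 3.39 and 5.41. In both cell types the 6 hour level was below the 3 hour level, and at 12 hours the MEF level was the highest of its 3. The 12 h over 3 h log2 ratios in ES cells and MEFs were -2.09 (-3.09 to -1.19) and 1.22 (-0.39 to 3.25). The MEF value rests on 17 and 4 reads and its interval spans 0, and the difference was not tested. The TSS of Peo1 lies 369 bp away and within this window, so that reads of both genes are in it.

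The other end of the order held members at which HA-Macro was nearly level. Mrps24, the counterpart of bacterial S3, stood at 1.26, 1.58 and 1.33 p.p.m. in ES cells, Mrps26, a protein of the mitochondrial small subunit only, at 1.44, 1.75 and 1.38, and Mrpl23, the counterpart of bacterial L23 near the peptide exit, at 1.15, 0.791 and 1.12. All of these were above their no-Dox values of 0.638, 0.718 and 0.798 p.p.m., apart from Mrpl23 after 6 hours, though each rests on 14 to 31 reads. Their 12 h over 3 h log2 ratios were 0.07 (-0.82 to 0.97), -0.06 (-0.91 to 0.80) and -0.04 (-0.998 to 0.92). The next were Mrps23, Mrpl2 and Mrps36-ps1, at -0.11, -0.21 and -0.22 without added reads. The annotated TSS of Mrps24 lies 7993 bp from the start of its longest coding transcript, which makes its window uncertain.

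**Figure D3:**
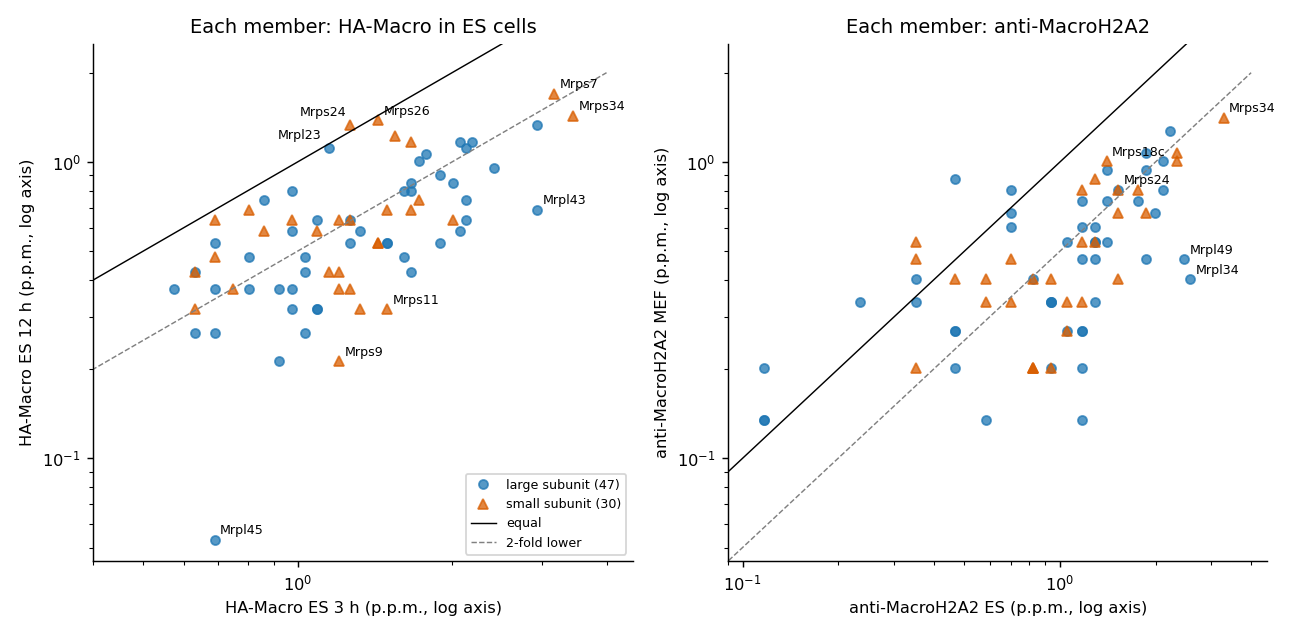
Each of the 77 members as 1 point on log axes of p.p.m., Mrpl genes (large subunit by name) as circles and Mrps genes (small subunit by name) as triangles. Left, HA-Macro in ES cells after 3 hours (x) and 12 hours (y). Right, anti-MacroH2A2 in ES cells (x) and MEFs (y). The solid line marks equal levels and the dashed line a 2-fold lower y value, and 76 of 77 points on the left lie below the solid line.

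Both ends of the order by level also held Mrpl and Mrps genes. The members with the most HA-Macro reads after 3 hours in ES cells were Mrps34 (3.45 p.p.m., 2.63 to 4.44), Mrps7 (3.16), Mrpl43 and Mrpl48 (2.93 each), Mrpl12 (2.41), the stalk protein that also binds the mitochondrial RNA polymerase, and Mrpl52 (2.18). Those with the fewest were Mrpl24 (0.575 p.p.m., 0.276 to 1.06), then Mrps33, Mrps31, Mrpl33 and Mrpl1 (0.632 each), and 6 members tied at 0.690 (Mrps23, Mrpl3, Mrpl10, Mrpl16, Mrpl45 and Mrps14). The intervals of Mrps34 and Mrpl24 do not overlap, while most neighbours in the order do. Mrps34 was also the highest member with anti-MacroH2A2 in both cell types, at 3.28 p.p.m. in ES cells and 1.41 in MEFs. It starts 29 bp from Eme2 on the other strand.

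The 47 Mrpl genes gave a log2 ratio of 12 over 3 hours of -1.18 (-1.33 to -1.03) in ES cells and the 30 Mrps genes -0.99 (-1.17 to -0.81), with overlapping intervals. The 46 members with a bacterial counterpart and the 31 without one, Mrps36 and Mrps36-ps1 among them, both gave a value near the pooled one, at -1.10 and -1.11. The 28 members with an opposite-strand coding TSS within 1 kb gave -1.38 (-1.57 to -1.20) and the other 49 gave -0.92 (-1.07 to -0.77). These intervals do not overlap, and the split did not consider whether a pair of genes points apart or overlaps. All genes outside the discarded tiles split the same way, at -1.04 with such a TSS and -0.52 without. At most of the 28 that TSS lies inside the 600 bp window (the exceptions are Mrpl18, Mrpl48 and Mrpl41, at 644, 887 and 935 bp). What part of the difference this accounts for was not tested. Members with CCGGAAG gave -1.04 (-1.23 to -0.86) and those without it -1.14 (-1.29 to -0.996), intervals that overlap.

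In MEFs the time course at the members was shallower than in ES cells and less precise. The pooled log2 ratio of 12 over 3 hours was -0.39 (-0.58 to -0.19), with 55 of 77 members and 13600 of 21418 genes below 0. Of 48 members with at least 10 reads, 10 were at least 2-fold lower and 1 was 2-fold higher, against 12.2% and 4.35% of all genes. The median gene stood at -0.23, the median gene with a CpG-rich promoter at -0.35 (17.2% at least 2-fold lower) and the median member at -0.45. Against 12 over 6 hours, or in a 1000 bp window, the members' share of 2-fold lower calls was no higher than that of all genes. The intervals of the pooled ES and MEF ratios do not overlap, but the ES and MEF ratios start from levels that differ 3.05-fold after 3 hours, and the difference between them was not tested.

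Only 8 members reached 20 reads in MEFs, so that few can be named. Mrps26, Mrps24, Mrps7 and Mrpl23 had the lowest log2 ratios among them, at -0.77, -0.75, -0.66 and -0.64 with 1 read added, and Mrpl43, Mrps6, Mrpl49 and Mrps2 the highest, at 0.98, -0.10, -0.13 and -0.36. All 8 have single-gene intervals that span 0. Mrps24, Mrps26 and Mrpl23, the highest in ES cells, were thus in the lower part of these 8, all of which are named. Over all 77 members the lower quartile was -1.06 and the median -0.45 with 1 read added. The values of Mrps24, Mrps26 and Mrpl23 lay between these, so they were not among the lowest of all members. In reads they went from 11 to 12, from 13 to 14 and from 11 to 13 while the library totals were 11270358 and 20540691.

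The comparison of cell types asks whether MacroH2A2 is distributed differently in ES cells and MEFs. The paper states that scaling overestimates the apparent promoter loss in MEFs, which hold more MacroH2A2 signal far from promoters. How much of the differences below this accounts for was not tested. MEFs have no library without Dox here, and all 3 of their HA-Macro levels were below the ES level without Dox, so how much of the anti-HA signal in MEFs is new protein is not known. The anti-HA level after 3 hours was 3.05-fold lower at the members in MEFs than in ES cells (2.73 to 3.41), with 55 of 77 at least 2-fold lower against 39.3% of all genes and 56.6% of those with a CpG-rich promoter. After 6 hours it was 2.19-fold lower, with 33 of 70 against 25.2% and 34.6%. After 12 hours it was 1.86-fold lower (1.67 to 2.07), with 27 of 69 against 22.8% and 30.8%, and there the ES level was itself not above the level without Dox. The pooled log2 ratios were -1.61, -1.13 and -0.90, and the median genes stood at -0.60, -0.39 and -0.39.

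Total MacroH2A2 differed in the same direction in separate libraries, which were scaled to their totals in the same way. Its pooled log2 ratio of MEFs over ES cells was -1.14 (-1.30 to -0.99), from 597 and 757 reads, and 41 of 66 members were at least 2-fold lower and 0 were 2-fold higher, against 40% and 2.13% of all genes. The median member stood at -1.10, the median gene at -0.80 and the median gene with a CpG-rich promoter at -1.08. The members were therefore close to the CpG-rich group here. All 4 comparisons of MEFs with ES cells (3, 6 and 12 hours and anti-MacroH2A2) were lower in MEFs at 55 of 77 members (71.4%) and at 40.1% of all genes. Scaling to the upstream flanks moved the MEF over ES ratios by 0.13 to 0.18 for every gene alike and left the pooled member ratios below 0.

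The members with the lowest anti-MacroH2A2 ratios among the 26 with at least 20 reads were Mrpl34, Mrpl49, Mrpl4, Mrpl41, Mrps2 and Mrpl21, from -2.52 to -1.35 with 1 read added. Mrpl34, the counterpart of bacterial L34, held 2.57 p.p.m. in ES cells and 0.403 in MEFs, and lies in a discarded tile. Mrpl49, which starts 135 bp from the cytosolic ribosomal protein gene Fau, held 2.46 and 0.470 p.p.m., with a log2 ratio of -2.39 (-3.86 to -1.10). The highest of the 26 were Mrps18c, Mrps15, Mrps30, Mrpl52, Mrpl37 and Mrpl38, from -0.50 to -0.80, so none of the 26 was above 0. Among all members, with no minimum of reads, 70 were below 0 and 7 above. The highest was 0.68 at Mrpl17, from 13 reads in MEFs and 4 in ES cells. Mrps18c held 1.40 p.p.m. in ES cells and 1.01 in MEFs.

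**Figure D4:**
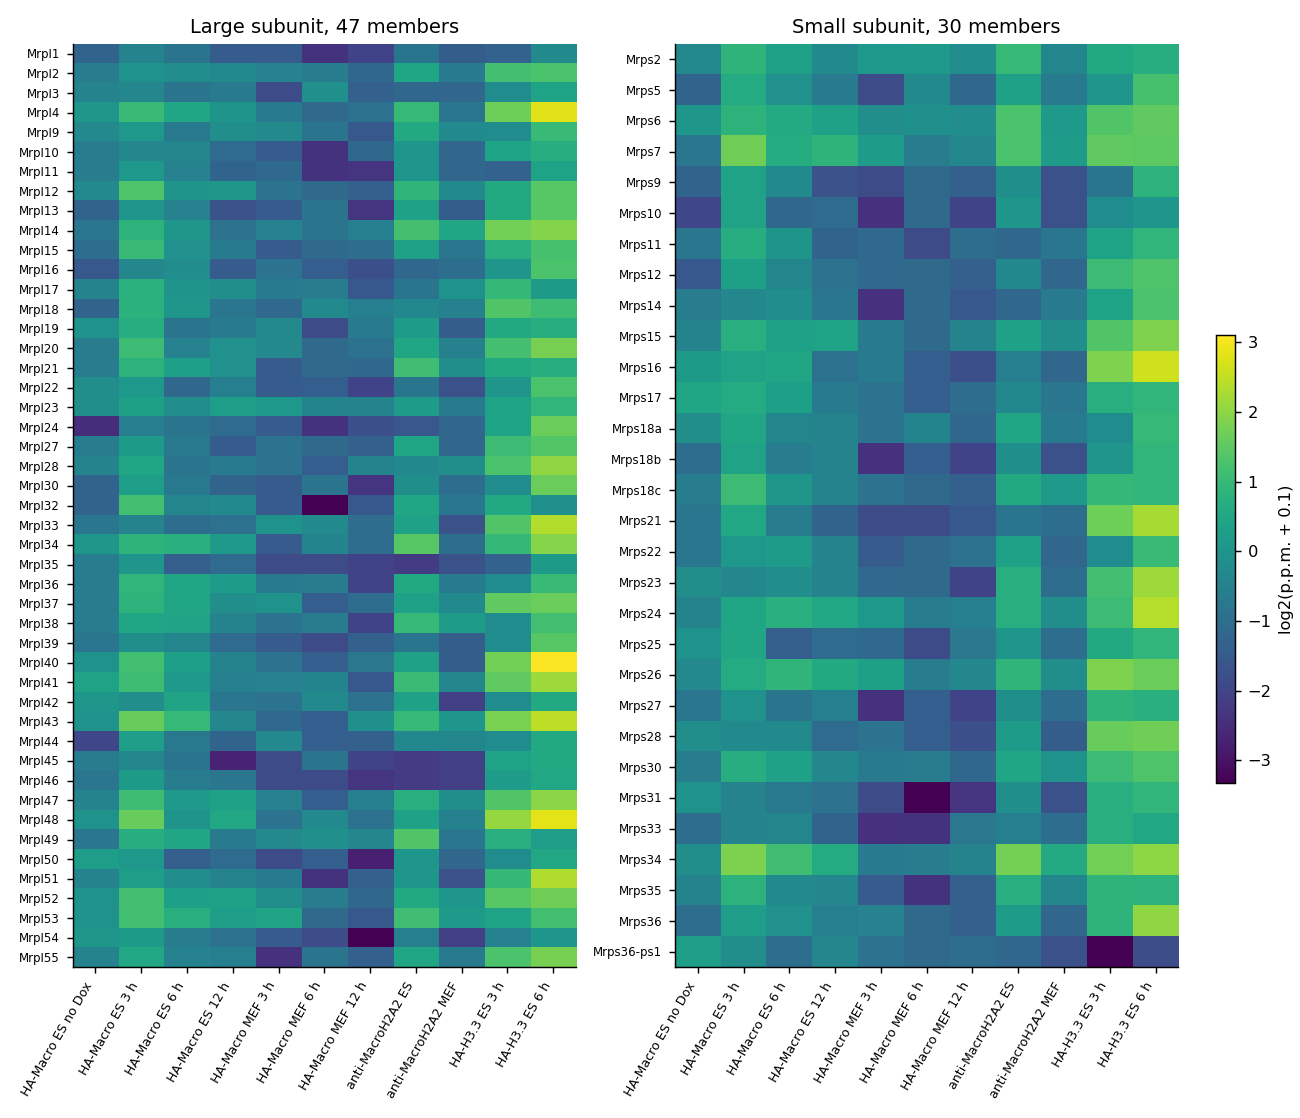
Level of each member in each library as log2(p.p.m. + 0.1), with the 47 Mrpl members (large subunit by name) on the left, the 30 Mrps members (small subunit by name) on the right, libraries as columns and a common colour scale on which files with 150 and 400 bp intervals are not to be compared. HA-Macro columns of MEFs are darker than the 3 hour ES column, the anti-MacroH2A2 column is darker in MEFs than in ES cells, and Mrps36-ps1 is the darkest member with HA-H3.3.

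HA-H3.3 was higher after 6 hours than after 3 hours at most members, the reverse of HA-Macro. The pooled log2 ratio was 0.64 (0.53 to 0.76), above 0 at 67 of 77 members (7133 of 21418 genes were below 0), and 19 of 76 were at least 2-fold higher against 20% of all genes. That share is close to the background, and the median gene stood at 0.35, the median gene with a CpG-rich promoter at 0.56 and the median member at 0.58. Scaled to the upstream flanks the pooled ratio was 0.35. The most HA-H3.3 reads after 6 hours were at Mrpl40 (8.30 p.p.m., 6.67 to 10.2), Mrpl48 (6.996), Mrpl4 (6.90) and Mrps16 (6.06). Mrpl40, a protein of the mitochondrial large subunit only, starts 270 bp from Hira, which encodes a chaperone that deposits H3.3, and its HA-Macro levels of 2.13, 1.13 and 0.637 p.p.m. in ES cells had the same order as the pooled values.

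The fewest were at Mrps10 and Mrpl54 (0.933 p.p.m. each), Mrpl32 (0.839), Mrpl1 (0.746) and Mrps36-ps1 (0.187). Mrps36-ps1 is annotated as protein-coding but is named as a copy of Mrps36, and it held 0 reads after 3 hours, which allows up to 0.463 p.p.m., and 2 reads after 6 hours. Mrps36 itself held 1.70 and 4.01 p.p.m. In HA-Macro libraries of ES cells Mrps36-ps1 gave 1.12 p.p.m. without Dox and 0.804, 0.395 and 0.690 with Dox, so that its Dox-treated levels were at or below the no-Dox level. Its promoter window has a GC content of 40% and is not CpG-rich. Reads on a gene and its copy can be exchanged where the sequences are alike, as 1 location was picked at random for reads with several.

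How alike the order of the 77 members was between libraries is given as a description. Spearman's rho between HA-H3.3 and HA-Macro in ES cells, both after 3 hours, was 0.50, and with HA-H3.3 after 6 hours it was 0.32, against 0.73 for both over 20759 genes outside the discarded tiles. Between HA-Macro after 3 hours and anti-MacroH2A2 in ES cells it was 0.64, against 0.63. Between the 3 and 12 hour HA-Macro libraries in ES cells it was 0.64, against 0.52. The members are sampled by few reads each, and the libraries compared share the base composition and mappability of each promoter.

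Other nuclear genes for mitochondrial translation had similar ratios. In ES cells from 3 to 12 hours, 7 other mitochondrial ribosome genes (among them Dap3 and Ptcd3) gave a pooled log2 of -1.41 (-1.85 to -0.996), with 5 of 7 at least 2-fold lower. The 17 mitochondrial aminoacyl-tRNA synthetase genes gave -1.33 (-1.59 to -1.09), with 12 of 17 lower, and 18 genes for translation and assembly factors (such as Tufm and Mtif2, and including 2 genes annotated as Nsun4 with overlapping windows) gave -1.05 (-1.30 to -0.81), with 10 of 18 lower. The 85 respiratory chain genes gave -1.19 (-1.29 to -1.08), with 51 of 84 lower. The 75 cytosolic ribosomal protein genes gave -1.49 (-1.60 to -1.38), with 58 of 75 lower, an interval that does not overlap that of the members. None of these lists held a gene that was 2-fold higher, and 28.1% of all genes were lower, as given above.

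In MEFs from 3 to 12 hours the other mitochondrial ribosome genes gave -1.07 (-1.72 to -0.42), the synthetases -0.65 (-1.05 to -0.24), the factors -0.51 (-0.95 to -0.07) and the cytosolic ribosomal protein genes -0.56 (-0.73 to -0.39). Each of these intervals overlaps that of the members. The 8 genes for mitochondrial DNA maintenance and transcription, such as Tfam and Polrmt, gave -1.11 (-1.44 to -0.79) in ES cells and 0.08 (-0.47 to 0.66) in MEFs. With anti-MacroH2A2 in MEFs over ES cells the synthetases gave -1.44 (-1.80 to -1.10), with 13 of 15 at least 2-fold lower, and the factors -0.73 (-1.08 to -0.37), with 6 of 16 lower, against 40% of all genes. The respiratory chain genes gave -1.04 and the cytosolic ribosomal protein genes -1.08, both close to the members. Peo1, which shares reads with Mrpl43, is among the 8 genes for mitochondrial DNA maintenance.

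**Figure D5:**
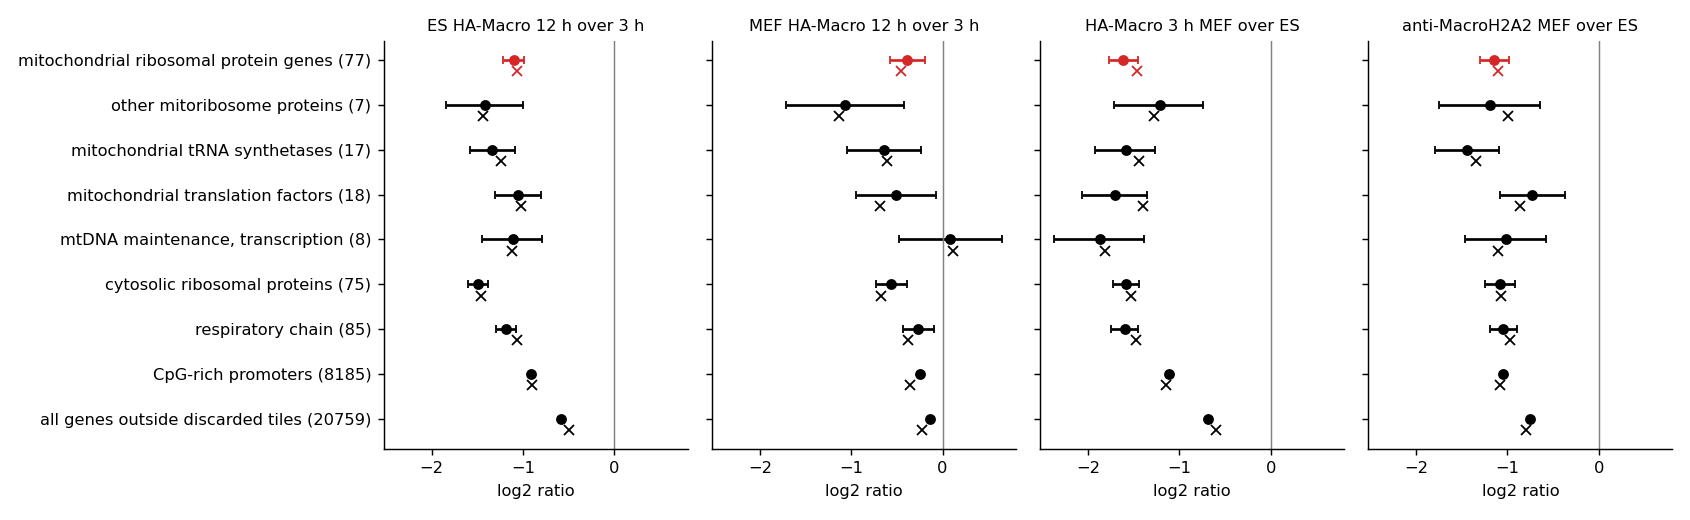
Log2 ratio of pooled reads (dots, with exact 95% intervals) and of the median gene with 1 read added (crosses) for the members (red) and other gene lists, in 4 comparisons, with the number of genes in brackets. The mitochondrial and ribosomal lists lie to the left of all genes in ES cells from 3 to 12 hours and for MEFs over ES cells after 3 hours, and most of their intervals are wide in MEFs over time.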

How the data were processed

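Chromatin from ES cells and MEFs was immunoprecipitated and sequenced by the authors, who aligned the reads to mm9 with Bowtie 1.0, allowing 1 mismatch, placed multiply aligning reads at 1 randomly chosen location, and lengthened each read in its 3′ direction. The deposited files list the start and end of each read interval, with no strand, score or count. Intervals are 150 bp long in HA-Macro files and 400 bp in the others, and 3.27% to 6.00% of intervals in HA-Macro files and 0.462% to 0.693% in the others repeat an earlier one.

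From these, interval midpoints within 600 bp of each GENCODE vM1 TSS were counted and divided by the reads on chromosomes 1 to 19, X and Y (Python 3.11.15, NumPy 2.4.6, SciPy 1.17.1, pandas 2.3.3). Pooled counts of all members used the union of their windows, and those of subsets and other lists the sum of the windows. With 1 library per condition no test was made. Log2 ratios of pooled reads have exact Clopper-Pearson intervals and levels exact Poisson intervals (95%). These cover counting error only, as the reads carry no molecular identifiers. A gene was called at a 2-fold difference with 1 read added and at least 10 reads over both libraries. Members were named as the 6 lowest and 6 highest by ratio among those with at least 20 reads over both libraries (4 and 4 in MEFs over time), and by level as the 6 or 4 with most and fewest reads. The scripts were tested on simulated data.

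The members and gene lists were chosen with earlier results of these data known. The anti-MacroH2A2 libraries are described as untreated in the labels and differently elsewhere in the study, so only antibody and cell type were used.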

Additional observations from a re-analysis of the deposited data

How the results depend on the processing

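Over 10 results and their alternatives, 82 of 101 values stayed within the main counting interval or within 1.5 times the main count, and 19 moved further. No pooled log2 ratio among them changed sign, and a count cannot do so. The ES ratio of 12 h over no Dox, not among the 10, turned from 0.04 to -0.26 when scaled to the upstream flanks. No paired analysis was possible because each condition has 1 library. Without members near another protein-coding TSS, the pooled log2 ratio was -0.93 for 12 h over 3 h in ES cells. It was -1.39 for MEFs over ES cells after 3 hours and 0.88 for 3 h over no Dox. Of the members left, 22 of 48 were at least 2-fold lower from 3 to 12 hours in ES cells, against 28.1% of all genes. With anti-MacroH2A2, 25 of 38 were lower in MEFs, against 40% of all genes. With 6 h in place of 3 h the 12 h ratios were -0.42 in ES cells (10 of 76 lower, against 10.3%) and -0.18 in MEFs (4 of 47, against 10.4% of all genes). With the no-Dox level subtracted, the ES ratio was -5.35, from 1.41 and 57.6 p.p.m., the former within counting error of 0. A 300 bp window gave 0.51 for HA-H3.3, 1.00 for 3 h over no Dox, 3 of 9 lower in MEFs over time (12.5% of all genes) and 24 of 37 lower with anti-MacroH2A2 (46.2%). A 1000 bp window gave -0.98 for anti-MacroH2A2 and 6 of 71 lower in MEFs over time (8.597%), and with no minimum of reads 20 of 77 were lower there (14.7%). Scaled to the upstream flanks, HA-H3.3 gave 0.35 and 3 h over no Dox 0.88. Leaving out the members in discarded tiles and Mrps36-ps1, an alternative chosen after seeing the data, moved none of the 10 results. The causes of these shifts were not tested. Depth limits single members most, with a median of 4 to 6 reads in the MEF HA-Macro libraries.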
